A study of Mus musculus with 2 samples.

Results

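The genes described here are 4 simple-epithelial keratins and 5 genes tied to the fate of bile duct cells: Krt7, Krt8, Krt18, Krt19, Epcam, Sox9, Sox4, Spp1 and Cdh1. They were chosen by name, and all 9 were found among the 43346 mouse gene rows by their Ensembl identifiers. RNA came from whole livers of B6NCrl mouse embryos at 14.5 days, a single group of 2 biological replicates for which the labels name no treatment and no mutation. Per the labels each liver came from 1 pup and the 2 were collected on different days, although the same labels also call the tissue mixed in sex. Each library was made from 10 ng of RNA above 200 nucleotides with spike-in RNAs added. With a single group there is nothing to test against, so no p-values are given. Values are given for each liver, replicate 1 before replicate 2.

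Keratins are the intermediate filament proteins of epithelia, and each filament pairs a type I with a type II keratin. In the adult liver, hepatocytes carry only the pair of Krt8 (type II) and Krt18 (type I), while bile duct cells add Krt7 (type II) and Krt19 (type I). Both cell types descend from the hepatoblast, and those next to the portal mesenchyme form the ductal plate, in which Sox9, Sox4 and osteopontin (Spp1) mark or steer the duct fate.

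Reads on mouse genes numbered 37059776 in replicate 1 and 26908926 in replicate 2, of 39998450 and 28848861 in all. Levels are in TPM, a length-scaled share of the library, and a gene is called detected where both livers had at least 1 TPM. By this rule 26.2% of all mouse gene rows and 49.2% of protein-coding rows were detected. Every list count below is to be read beside these shares. Of 12 hepatoblast markers, which check the tissue label, 11 were detected. A chi-square over 16251 genes gave 10.4 per degree of freedom between the libraries, so they are separate libraries whose spread exceeds counting error. Every interval below covers counting error only. In whole tissue, fewer cells of a type and less RNA per cell cannot be told apart.

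Promoter windows from RefSeq (GRCm38.p6, 250 bases before to 50 after the annotated start) are shown for the 2 keratins that led the levels, Krt8 and Krt18, and for the duct keratin Krt7 and the surface gene Epcam, which were low. All are written 5′ to 3′ along the gene, and capitals mark 4 motifs searched on both strands: the TATA box TATAAA, the GC box GGGCGG, the E-box CACCTG and the box CCAAT. The Krt8 window lies at chr15:102004293-102004592 on the minus strand, that of Krt18 at chr15:102027966-102028265 on the plus strand, that of Krt7 at chr15:101412153-101412452 on the plus strand and that of Epcam at chr17:87635729-87636028 on the plus strand.
Krt8: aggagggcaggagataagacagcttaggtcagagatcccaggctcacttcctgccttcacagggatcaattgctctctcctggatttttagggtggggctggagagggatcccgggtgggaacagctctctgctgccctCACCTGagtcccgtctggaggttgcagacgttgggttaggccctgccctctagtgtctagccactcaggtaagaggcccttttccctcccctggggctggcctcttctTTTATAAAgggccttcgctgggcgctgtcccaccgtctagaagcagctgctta
Krt18: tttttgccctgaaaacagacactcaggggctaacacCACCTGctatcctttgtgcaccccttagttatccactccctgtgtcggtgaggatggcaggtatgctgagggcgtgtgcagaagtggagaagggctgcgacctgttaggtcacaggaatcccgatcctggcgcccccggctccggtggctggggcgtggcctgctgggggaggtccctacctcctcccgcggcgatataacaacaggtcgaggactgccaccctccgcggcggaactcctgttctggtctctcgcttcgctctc
Krt7: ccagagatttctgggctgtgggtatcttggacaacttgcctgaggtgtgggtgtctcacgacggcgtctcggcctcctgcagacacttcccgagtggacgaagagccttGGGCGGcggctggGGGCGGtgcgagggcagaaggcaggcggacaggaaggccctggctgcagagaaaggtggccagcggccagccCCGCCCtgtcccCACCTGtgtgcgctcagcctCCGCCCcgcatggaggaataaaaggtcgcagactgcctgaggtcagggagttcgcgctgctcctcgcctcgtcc
Epcam: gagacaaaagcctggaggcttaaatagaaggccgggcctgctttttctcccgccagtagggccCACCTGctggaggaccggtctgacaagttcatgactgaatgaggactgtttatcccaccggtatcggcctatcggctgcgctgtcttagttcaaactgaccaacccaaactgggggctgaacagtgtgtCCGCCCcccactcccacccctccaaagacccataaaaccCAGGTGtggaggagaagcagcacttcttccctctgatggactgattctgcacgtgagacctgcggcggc
GENCODE M21 places the starts of Krt8, Krt18 and Krt7 further upstream, so part or all of these windows lies inside the GENCODE gene. Of the 4 windows, only that of Krt8 held TATAAA, with its reverse complement overlapping it. This match began 1 base before the annotated start and ran across it, inside the GENCODE gene. Whether it acts as a TATA box was not tested. The core promoter motif TATAAA occurs in 13.6% of all 32851 windows of this length. The GC-rich motif GGGCGG stood 4 times in the Krt7 window, 1 time in that of Epcam and not in those of Krt8 and Krt18; 35.7% of all windows hold it. CACCTG, the E-box form bound by the Snail and Zeb repressors, was in each of the 4, 2 times in Epcam, and is in 20.2% of all windows. CCAAT was in none of the 4 and is in 37.4% of all windows. Windows were found for 6 of the 9 genes, also for Sox4 and Spp1, and not for Krt19, Sox9 and Cdh1. The windows not shown differed from the 4 above. That of Sox4 held the box CCAAT 4 times and none of the other motifs, the E-box included. For Spp1, 1 window held the TATA box, the E-box and the box CCAAT, 1 time each. The other Spp1 window held none of the motifs. The motif pattern of the 4 shown windows is therefore not one of all members with a window.

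The hepatocyte keratin pair stood far above the other members. Krt8 (ENSMUSG00000049382.9, chromosome 15, 101996698 to 102004482 on GRCm38) was at 87.1 and 91.5 TPM, from 6216 and 4538 reads. Krt18 (ENSMUSG00000023043.6, chromosome 15, 102028180 to 102032027) was at 73.5 and 73.2 TPM, from 3996 and 2769 reads. Both were close between the livers, and their ranges did not overlap, Krt8 being the higher in each. Krt8 ranked 999 and 998 and Krt18 ranked 1178 and 1243 among all mouse gene rows. Together they held 87.3% and 89.0% of the TPM of the 9 genes. Their ratio, Krt8 over Krt18, was 1.19 in replicate 1 and 1.25 in replicate 2.

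The duct keratins were close to the limit of 1 TPM. Krt7 (ENSMUSG00000023039.12, chromosome 15, 101411043 to 101430313) was at 1.24 and 1.20 TPM, from 121 and 93 reads. Krt19 (ENSMUSG00000020911.10, chromosome 11, 100140810 to 100148665) was at 1.97 and 1.02 TPM, from 87 and 32 reads. The Krt7 values lay inside the range of Krt19, so the order of these 2 was not settled. Krt7 over Krt19 was 0.629 and 1.18, on either side of equality. Krt8 was 70.3-fold and 76.3-fold above Krt7, the other type II keratin among the 9, and Krt18 was 37.3-fold and 71.8-fold above Krt19, the other type I keratin.

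Cdh1 was the highest of the genes that are not keratins. It encodes E-cadherin, the adhesion receptor of epithelial adherens junctions, which human erythroid precursors also carry. Cdh1 (ENSMUSG00000000303.8, chromosome 8, 106603351 to 106670246) was at 12.1 and 11.2 TPM, from 2191 and 1416 reads. In both livers it lay below Krt18 and above Spp1. Spp1 (ENSMUSG00000029304.10, chromosome 5, 104435118 to 104441050), the secreted matrix protein osteopontin, was at 5.29 and 4.62 TPM, from 290 and 177 reads.

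The transcription factors and Epcam were low. Sox4 (ENSMUSG00000076431.4, chromosome 13, 28948919 to 28953713), a factor that acts with Sox9 in duct formation in the mouse, was at 1.57 and 1.62 TPM, from 309 and 221 reads. Part of this estimate is shared: the long RNA Gm26735 overlaps Sox4 on the other strand, with 73.9 and 37.5 estimated reads, and the posterior SD of the Sox4 count was 11.7 and 9.77 reads. Sox9 (ENSMUSG00000000567.5, chromosome 11, 112782224 to 112787760), an early ductal plate factor, was at 0.49 and 0.35 TPM, from 83 and 41 reads. Epcam (ENSMUSG00000045394.8, chromosome 17, 87635979 to 87651129), a surface glycoprotein of duct cells and their progenitors, was at 0.65 and 0.32 TPM, from 53 and 18 reads. The other 8 genes, Sox4 aside, had a posterior SD of 0 on their gene-level counts.

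By mean TPM the order was Krt8, Krt18, Cdh1, Spp1, Sox4, Krt19, Krt7, Epcam and Sox9. The ranges over the livers were apart from Krt8 down to Sox4 and between Krt7 and Epcam. They overlapped between Sox4 and Krt19, between Krt19 and Krt7 and between Epcam and Sox9. Detected were 7 of the 9, where 26.2% of all mouse gene rows and 49.2% of protein-coding rows were. Epcam and Sox9 were below 1 TPM in both. The median over the 9 was 1.97 and 1.62 TPM, beside 9.20 and 10.1 TPM over all detected genes. Krt8 lay above 91.2% of detected genes and Krt18 above 89.3%, Cdh1 above 55.0% and Spp1 above 32.7%, while Sox4, Krt19 and Krt7 lay above 6.43%, 5.22% and 1.65%.

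**Figure D1:**
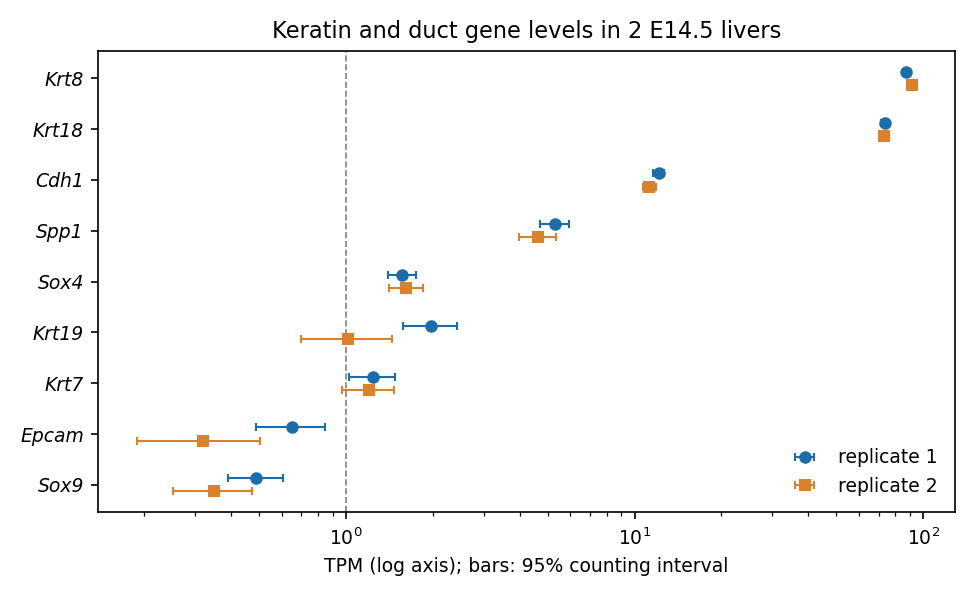
Level of each of the 9 genes in TPM on a log axis, with 1 point for each liver and 95% exact Poisson intervals of the read count; the dashed line marks 1 TPM. Krt8 and Krt18 lie between 73.2 and 91.5 TPM, and Epcam and Sox9 lie below 1 TPM in both livers.

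Transcript use was single for most members. Krt8, Krt18, Epcam, Sox9 and Sox4 have 1 transcript each in the tables. Cdh1-201 held 99.7% of Cdh1 TPM in replicate 1 and all of it in replicate 2. Spp1-201 held all of the Spp1 TPM in replicate 1 and 80.9% in replicate 2, and Spp1-205 took the other 19.1% in replicate 2. The posterior SD on the reads of Spp1-201 was 34.2 and 26.1, on 290 and 142 estimated reads, which is wide beside the split. Transcript names are from GENCODE M21, a later release than the M4 used for the tables.

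For the duct keratins, short transcripts held more of the TPM than of the reads. Krt7-201, which is 4094 nucleotides long, held 49.8% and 59.2% of Krt7 TPM but 85.0% and 88.6% of its estimated reads. Krt7-204, which is 642 nucleotides long, held 26.2% and 38.1% of the TPM from 7.36 and 7.21 estimated reads. For Krt19, a transcript annotated as non-coding held 55.8% and 53.2% of the TPM, and the coding Krt19-201 held 44.2% and 46.8%. By estimated reads Krt19-201 led, with 61.8% and 64.2%. The level of coding Krt19-201 alone was 0.87 and 0.48 TPM.

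Among the 50 keratins named Krt and digits, 5 were detected: Krt8, Krt18, Krt20, Krt19 and Krt7. Left out of these counts, shares and sums were 4 genes whose symbols end in a letter, with 1 read among them. No read was counted for 34 of the 50 in either liver, which allows up to 3 reads, or 0.0810 and 0.111 RPM (reads scaled to the total on mouse genes). Krt8 held 47.9% and 48.7% of keratin TPM and Krt18 held 40.4% and 39.0%. The remaining large share was that of Krt20 (ENSMUSG00000035775.2, chromosome 11, 99428403 to 99438150), a type I keratin known from intestinal epithelium and urothelium. Krt20 stood at 16.3 and 17.7 TPM, from 1246 and 942 reads, with a posterior SD of 0. It lay above the 7 members other than Krt8 and Krt18 in both livers, and Krt18 was 4.51-fold and 4.13-fold above it. Krt19 and Krt7 held 1.08% and 0.682% of keratin TPM in replicate 1, and 0.543% and 0.639% in replicate 2.

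Summed over the family, the RNA levels of the 2 keratin types were near equal. The 24 type II genes held 88.6 and 93.2 TPM and the 26 type I genes held 93.2 and 94.8 TPM. Type II over type I was thus 0.951 in replicate 1 and 0.983 in replicate 2, against 1.19 and 1.25 for Krt8 over Krt18 alone. This sum was formed after the level of Krt20 had been seen. Whether Krt20 and Krt8 lie in the same cells was not tested.

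**Figure D2:**
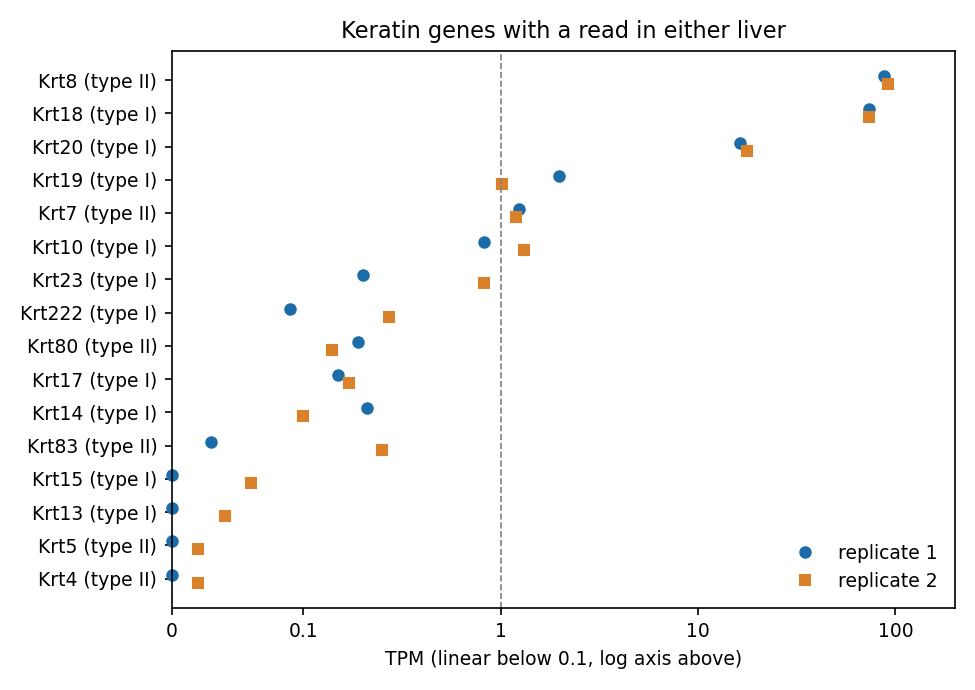
TPM of the keratin genes with a read in either liver (linear below 0.1, log axis above), 1 point for each liver, with the keratin type in parentheses; the dashed line marks 1 TPM. Krt8, Krt18 and Krt20 stand apart from the rest, at 16.3 TPM or more, and Krt19 and Krt7 are the only others not below the line in either liver.

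Of 16 desmosome and linker genes, which tie keratins to cell junctions, 7 were detected, near the 49.2% of protein-coding rows. They included plakoglobin (Jup) at 6.93 and 7.82 TPM, plakophilin Pkp2 at 4.89 and 6.84 TPM and Pkp4 at 4.27 and 4.23 TPM. The desmosomal cadherin Dsg2 was at 2.21 and 2.43 TPM, Dsc2 at 2.79 and 3.82 TPM, and the keratin anchor desmoplakin (Dsp) at 1.61 and 1.66 TPM. The epidermal desmosomal cadherins Dsg1a, Dsg3, Dsg4 and Dsc1 had no read in either liver. Of 13 other intermediate filament genes, 6 were detected, led by the lamin gene Lmna at 94.7 and 110.0 TPM. Vimentin (Vim), the filament of mesenchymal and many blood cells, was at 59.2 and 54.3 TPM, below Krt8 and Krt18 in both livers. The lowest of these genes by mean was the neurofilament gene Nefm, at 0.02 TPM in both.

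The partners of E-cadherin were all detected. Of 9 adherens junction genes, 9 were detected, with beta-catenin (Ctnnb1) at 66.3 and 75.2 TPM, alpha-catenin (Ctnna1) at 21.04 and 23.24 TPM and vinculin (Vcl) at 13.7 and 17.8 TPM. The lowest was the junction scaffold gene Tjp1, at 1.55 and 2.32 TPM. Of 8 other cadherins, 3 were detected. N-cadherin (Cdh2), the other cadherin of liver cells, was at 9.52 and 11.4 TPM, endothelial Cdh5 at 5.00 and 6.05 TPM and mesenchymal Cdh11 at 1.89 and 2.04 TPM. Cdh15, a muscle cadherin, had 1 read in replicate 1 and 0 in replicate 2. Cdh1 over Cdh2 was 1.27 in replicate 1 and 0.987 in replicate 2, so neither was higher in both.

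Of 6 transcriptional repressors of Cdh1, Zeb2 at 7.75 and 8.17 TPM and Zeb1 at 3.48 and 3.20 TPM were detected. Snai1 was at 0.90 and 1.67 TPM, and Twist1, the lowest by mean, at 0.05 and 0.07 TPM. Of 8 epithelial transcription and splicing factors only the splicing factor Esrp2 was detected, at 5.36 and 5.71 TPM. Elf3 was at 0.49 and 0.35 TPM and Grhl1 at 0.16 and 0.36 TPM. Grhl2, known elsewhere as an activator of Cdh1, had 0 reads in replicate 1 and 1 in replicate 2.

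Among relatives and partners of Epcam, 6 of 9 were detected. The tetraspanins Cd9 and Tspan8 were at 79.0 and 85.8 TPM and at 39.7 and 50.7 TPM, and the hepatocyte claudin Cldn1 at 26.6 and 29.1 TPM. Cldn7, the claudin known to bind Epcam, was at 1.80 and 1.85 TPM, from 51 and 23 reads. Cldn4, the lowest, was at 0.24 TPM in both.

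All 9 receptor genes for osteopontin were detected. They were led by the integrins Itgb1 at 60.5 and 68.8 TPM and Itga4 at 22.2 and 21.8 TPM and by Cd44 at 12.6 and 13.3 TPM. Itga9 was the lowest by mean, at 1.11 and 1.68 TPM. None of the 4 relatives of Spp1 was detected; Ibsp had 5 and 1 reads, and Dmp1, Mepe and Dspp had none. Of the genes for its processing, thrombin (F2), which cleaves osteopontin, was at 166 and 175 TPM, and the secretory kinase Fam20c at 5.63 and 5.95 TPM. The proteases Mmp3 and Mmp7 had no read. Macrophages, another source of osteopontin, were represented by 9 of 10 detected markers, the list summing to 228 and 232 TPM; their part in the Spp1 level was not tested.

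The regulators of the duct fate lay at low levels beside Sox9 and Sox4. Of 11, 6 were detected, near the 49.2% of protein-coding rows. The Notch effector Rbpj was at 5.65 and 6.79 TPM, the receptor Notch2 at 4.44 and 4.72 TPM and Tgfbr2 at 4.26 and 4.73 TPM. The Notch ligand Jag1 was at 0.55 and 0.94 TPM and Glis3, the lowest, at 0.11 and 0.16 TPM. Of 15 genes of mature duct function 7 were detected, also near that share. Tm4sf4, Anxa4 and the water channel Aqp1 stood at 31.1 and 28.1, 23.8 and 27.7, and 10.8 and 12.4 TPM. The chloride channel Cftr had 3 and 11 reads, and the secretin receptor Sctr and the bile acid importer Slc10a2 had none. Red cells are also known to carry Aqp1. The 6 erythroid markers, all detected, summed to 2723 and 2871 TPM, and their part in the Aqp1 level was not tested.

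Of 20 Sox genes, 5 were detected. Sox6, a regulator of red cell maturation, led at 17.9 and 18.7 TPM, followed by endothelial Sox18 at 3.32 and 4.07 TPM. Sox4 was the next by mean. Sox5 was at 1.06 and 1.73 TPM and Sox12, of the same subgroup as Sox4, at 1.12 and 1.59 TPM. Sox9 was the highest of its subgroup, above Sox8 at 0.01 and 0.12 TPM and Sox10 at 0.07 and 0.01 TPM. Sox17, which marks the extrahepatic duct and endothelium, was at 0.92 and 1.61 TPM.

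Marker lists of other epithelia held 3 to 8 genes each, too few to rank these tissues by the share detected. Of 8 mesothelial markers 3 were detected, and the list summed to 9.36 and 9.83 TPM, with Upk3b at 3.04 and 2.63 TPM and Wt1 at 0.58 and 0.84 TPM. Of 7 gut markers 3 were detected, Tff3 at 22.3 and 22.6, Fabp2 at 11.1 and 11.6 and Olfm4 at 8.97 and 6.92 TPM. The defining gut regulators were at or near 0, with no read of Cdx2 and 0 and 1 reads of Cdx1. None of 5 epidermal and none of 3 lung markers was detected, and Trp63, Krt1 and Nkx2-1 had no read. None of 5 pancreatic and extrahepatic duct markers was detected, and Ptf1a had no read. In these undetected lists, epidermal Krt10 (0.82 and 1.31 TPM), pancreatic Cpa1 (1.19 and 0.09 TPM) and Sox17 reached 1 TPM in 1 liver only. The hepatoblast list summed to 9952 and 10717 TPM, led by Afp, Alb and Ttr, and its lowest gene Foxa1 was at 0.52 and 0.92 TPM. Megakaryocyte markers, 7 of 7 detected, summed to 550.3 and 690.4 TPM. Which of these cells held the keratin and duct transcripts was not tested.

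**Figure D3:**
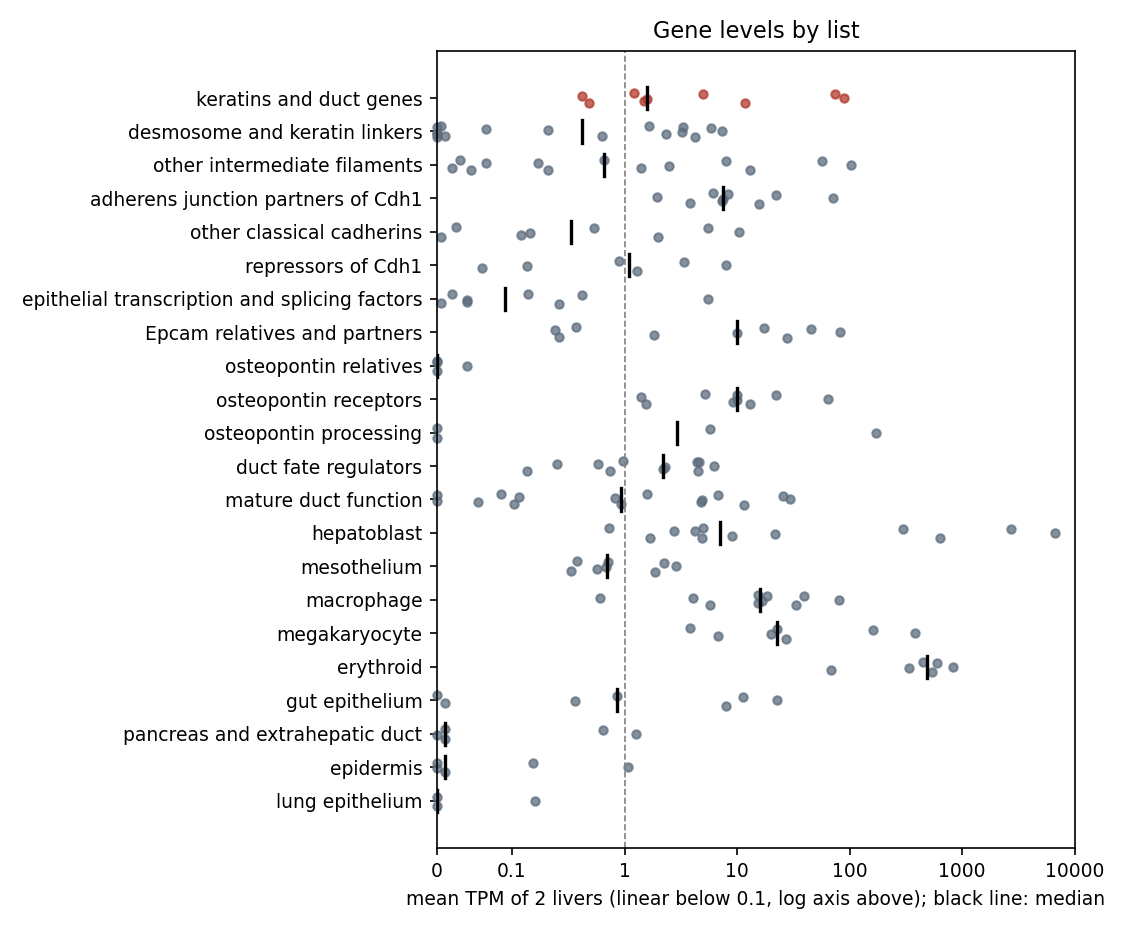
Mean TPM of the 2 livers for each gene (point) of the 9 keratin and duct genes, at the top in red, and of 21 other lists; the axis is linear below 0.1 and logarithmic above, black lines are medians and the dashed line marks 1 TPM. The red points run from 0.42 to 89.3 TPM, and most epidermal, lung and pancreatic genes lie below 1 TPM.

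Between the livers, the abundant members were close and 2 rare ones were not. Of the 3 members that averaged at least 10 TPM, none differed by 2-fold on the log2(TPM + 1) scale, where 0.180% of 5564 such genes did. Replicate 1 over replicate 2, on that scale, was -0.07 for Krt8, 0.00 for Krt18 and 0.10 for Cdh1. Scaled to reads on mouse genes, the ratio was 0.995 for Krt8 (interval 0.957 to 1.03), 1.05 for Krt18 (0.998 to 1.10) and 1.12 for Cdh1 (1.05 to 1.20). The sign for Krt8, Sox4 and Krt7 depended on the scaling. With TMM factors (trimmed mean of M values) on counts their log2 ratios were 0.05, 0.07 and -0.02, against -0.07, -0.03 and 0.03 in TPM. The intervals are exact conditional binomial ones.

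Krt19 and Epcam were higher in replicate 1. In reads scaled to the total on mouse genes (RPM), Krt19 had 2.35 in replicate 1 and 1.19 in replicate 2, a ratio of 1.97 with an interval of 1.30 to 3.06. Epcam had 1.43 and 0.669, a ratio of 2.14 with an interval of 1.23 to 3.88. For Sox9 the ratio was 1.47, with an interval of 0.999 to 2.19. For Krt7 it was 0.945 (0.715 to 1.25), for Sox4 1.02 (0.855 to 1.22) and for Spp1 1.19 (0.983 to 1.44). Of the duct keratins, Krt19 was thus the one with an interval that left out equality. That interval covers counting error, which is smaller than the spread between these libraries.

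Ratios of at least 1.5-fold, a lower bar than the ratios of Krt19 and Epcam, were not rare among rows of this depth. The share of such rows at 2-fold was not computed. Of 2316 rows with 50 to 200 summed reads, 13.8% were at least 1.5-fold higher in replicate 1 and 14.7% at least 1.5-fold higher in replicate 2. Of the 3 members in that range, 2 were at least 1.5-fold higher in replicate 1, Krt19 and Epcam, and none in replicate 2. In the lists, 3 genes of mature duct function had the higher TPM in replicate 1 and 10 in replicate 2. For duct fate regulators these counts were 2 and 8, and for epithelial factors 3 and 4. TPM leaned to replicate 2 at large, with a median log2 ratio of -0.09 over the 5564 genes in the 2-fold call. Adherens junction genes were 0 and 9. The lean to replicate 2 in TPM was thus not confined to the duct lists. With TMM factors on counts the median was 0.002 over 8458 genes, but these factors centre such ratios by design. The list counts were not redone with them, so whether the lean of the duct lists remains after that scaling was not tested. The genes named next were picked after their values were seen. The pancreatic gene Cpa1 had 74 reads in replicate 1 and 4 in replicate 2, the epithelial splicing gene Esrp1 had 13 and 0, and the duct cilium gene Dcdc2a had 13 and 0. The pancreas and extrahepatic duct list summed to 2.13 and 1.72 TPM, but its 2 main genes went in opposite directions. Cpa1 was at 1.19 and 0.09 TPM, and Sox17, which also marks endothelium, at 0.92 and 1.61 TPM. Pdx1 had 4 and 0 reads, Nkx6-1 had 0 and 1 and Ptf1a had none. In the other direction, Onecut1 had 93.5 and 129 estimated reads, Jag1 127 and 150 and Krt23 12 and 35. The mesothelial list was near equal, and its part and that of pancreatic tissue in the difference were not tested.

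**Figure D4:**
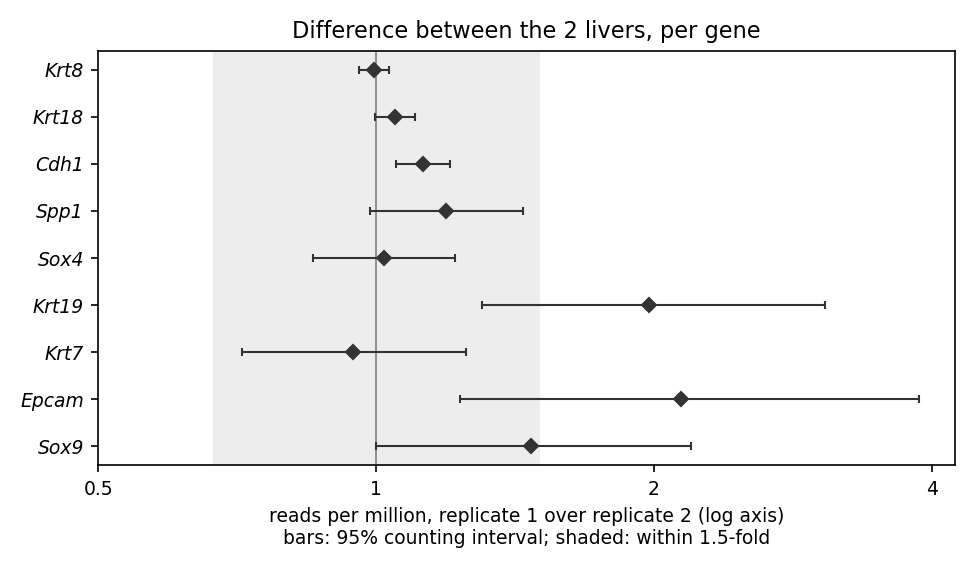
RPM on mouse genes, replicate 1 over replicate 2, for each of the 9 genes on a log axis, with 95% exact counting intervals; the shaded band is within 1.5-fold. Krt19 and Epcam lie beyond the band at 1.97 and 2.14, and the other 7 lie inside it.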

How the data were processed

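Liver RNA of 2 mouse embryos at 14.5 days was sequenced, 1 library each, in 1 group. The tables rest on build mm10 and GENCODE M4, per notes deposited with them. The software that aligned and counted was not given in the sources used here. The authors deposited expected counts, which are estimated and not normalized. They also deposited TPM, whose total takes in the spike-ins, and FPKM. The percent of a gene's TPM held by each transcript and the posterior SD of each estimated count were deposited too, per the file headers. Strand use in counting is not stated.

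Symbols and positions were joined by unversioned identifier from GENCODE M21 on the same build (42462 of 43346 mouse rows). Rows with numeric identifiers were left out, as were the spike-ins, which took 7.35% and 6.72% of reads. Detection was set at 1 TPM. Replicate 1 was set over replicate 2 on the log2 scale after adding a pseudocount of 1 to TPM; the 2-fold call used genes with a mean of 10 TPM and 50 summed expected counts. Read counts have 95% exact Poisson intervals, and their ratios exact conditional binomial ones on rounded expected counts. A count of 0 allows 3. The members and the 21 lists were chosen with earlier results of these data known; 174 of 176 listed symbols were matched, not Eppk1 and Muc16. Named were every member, the 3 highest genes and the lowest gene in every list, every keratin and Sox gene at 1 TPM in both livers and the leading transcripts, though some are left unprinted; all others were named after their values were seen. With 2 libraries no measure of likeness to the members' pattern was computed. Some listed genes are not reported here. The planned comparison of protein sequences was not made. Calls and intervals were tried on simulated Poisson counts. These hold counting error only, so they cannot show how the intervals do with the wider spread of these libraries. Alternatives were other thresholds, pseudocounts and filters, FPKM, expected counts, TPM without globin genes, TMM factors from edgeR and size factors from DESeq2 (factors only, no test), and each liver alone. Scaling factors came from R 4.3.3 (DESeq2 1.42.0, edgeR 4.0.16). Tables, intervals and plots came from Python 3.11.15 (scipy 1.17.1, pandas 2.3.3, matplotlib 3.10.9, numpy 2.4.6).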

Additional observations from a re-analysis of the deposited data

How the results depend on the processing

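The order of the 9 genes in FPKM was that in TPM. By expected counts, which do not correct for length, 3 of 9 genes kept their place, Krt8 over Krt18 averaged 1.6 and Krt7 over Krt19 averaged 2.15, where TPM gave 1.22 and 0.903. With each liver alone, 5 to 7 of the 9 genes kept their place, Krt8 over Krt18 ran from 1.19 to 1.25 and Krt7 over Krt19 from 0.629 to 1.18. At 5 TPM in place of 1 TPM, 3 of the 9 members and 62 of the 174 list genes were detected in both livers, where 1 TPM gave 7 and 96; with each liver alone, 7 members and 98 to 101 list genes were. Over all genes, 10 passed 2-fold; 6 did when 5 was added to TPM, 40 when genes averaging 1 TPM were let in, 146 with no filter and 18 in TPM without globin genes. Of the members, only 3 entered the 2-fold call in most settings, also with TMM or DESeq2 factors, 7 from a mean of 1 TPM and all 9 with no filter; none of those entered passed. With 1 added to TPM, genes as low as Epcam could hardly reach 2-fold, and its ratio in plain TPM was 2.03. At a pseudocount of 0.1 the log2 ratios of Krt19, Epcam and Sox9 were 0.89, 0.84 and 0.39, against 0.56, 0.32 and 0.14 with 1. With TMM factors 3 of the 3 rare members, now also Sox9, passed 1.5-fold in replicate 1, where 16.5% of rows of like depth did; this background was chosen after seeing the data. No paired analysis was possible because there was 1 group. Depth limits Epcam, Sox9, Krt19 and Krt7 most, with 18 to 121 reads per liver.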

Other observations

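Some genes usually named for other tissues were well above the detection limit in both livers, chosen after their values were seen. Gfap, the filament of astrocytes and in the liver of stellate cells, was at 7.61 and 8.35 TPM, from 794 and 618 reads, while the muscle and stellate cell filament gene Des was at 1.08 and 1.72 TPM. The trefoil gene Tff3 and the fatty acid carrier gene Fabp2 were above 10 TPM in both livers without a read of Cdx2. Tspan8, a tetraspanin of gut and duct epithelia, was at 39.7 and 50.7 TPM, above Epcam, Krt7 and Krt19 in both.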
